A study of Mus musculus with 6 samples.

Results

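Primary granule genes are the genes that promyelocytes transcribe when they build the first granules of the neutrophil lineage. The set described here was given as 8 genes, Mpo, Elane, Prtn3, Ctsg, Ms4a3, Cst7, Clec12a and Igsf6, and its members were all probe sets of the table whose platform gene symbol or current synonym is one of these names. Of the 8 genes, 7 had a probe set, each of them 1, out of 18193 genes named on the arrays. Clec12a was not analysed here. RNA had been taken from bone marrow cells of female mice aged 6 to 16 weeks, depleted of cells that carry mature blood lineage markers so as to enrich for stem and progenitor cells. There were 3 arrays of the strain B.D(Chr5), whose genetic background the labels give as B.D, and 3 of C57B/L6. No treatment or further allele is named for either strain, and the labels do not say whether a replicate was a single mouse or a pool. The p-values therefore measure the spread between these samples.

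The granules made by promyelocytes, also called azurophil granules, are specialised lysosomes loaded with antimicrobial proteins that neutrophils later release into phagosomes. In mouse marrow their genes are strongly transcribed in granulocyte-monocyte progenitors and promyelocytes and are shut off as the cells mature, before the genes of secondary granules take over. The transcription factors C/EBP, PU.1, MYB, RUNX1 and GFI1 are known regulators of this programme. Mpo encodes myeloperoxidase, and Elane, Prtn3 and Ctsg encode the serine proteases neutrophil elastase, proteinase 3 and cathepsin G. Cst7 encodes cystatin F, an inhibitor of the cysteine cathepsins that activate such proteases. Ms4a3 and Igsf6 encode membrane proteins of myeloid cells and are not granule contents, so the name of the set describes the stage at which its genes are used rather than a single organelle.

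The 7 genes lie on 6 chromosomes, 2, 7, 10, 11, 14 and 19, and none lies on chromosome 5, for which the strain B.D(Chr5) is named. Prtn3 and Elane are the only members on the same chromosome, and in the RefSeq annotation of GRCm38.p6 they are direct neighbours on chromosome 10. The 250 bases before the annotated start are shown for the 4 genes of granule contents, though all 7 genes varied together between arrays. The sequences are from RefSeq (GRCm38.p6), were found for all 8 genes and are printed on the strand of the gene. They lie at chr10:79886062-79886311 on the plus strand for Elane, chr10:79879417-79879666 on the plus strand for Prtn3, chr14:56102575-56102824 on the minus strand for Ctsg and chr11:87793534-87793783 on the plus strand for Mpo. Capitals mark matches, on either strand, to short core motifs of known granulocyte regulators, with the letters TTGCNNAA for C/EBP, GAGGAA for PU.1, CAACNG for MYB and TGTGGT for RUNX.
Elane: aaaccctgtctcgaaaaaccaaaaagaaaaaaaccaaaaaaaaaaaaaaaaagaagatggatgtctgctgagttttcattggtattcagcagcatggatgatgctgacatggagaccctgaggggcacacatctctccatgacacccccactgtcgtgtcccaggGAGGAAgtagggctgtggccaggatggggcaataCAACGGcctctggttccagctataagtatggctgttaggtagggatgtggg
Prtn3: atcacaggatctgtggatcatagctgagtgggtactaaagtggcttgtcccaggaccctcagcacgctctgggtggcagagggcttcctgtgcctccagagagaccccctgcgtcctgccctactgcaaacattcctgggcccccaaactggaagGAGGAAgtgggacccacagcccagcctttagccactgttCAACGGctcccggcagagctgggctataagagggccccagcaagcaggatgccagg
Ctsg: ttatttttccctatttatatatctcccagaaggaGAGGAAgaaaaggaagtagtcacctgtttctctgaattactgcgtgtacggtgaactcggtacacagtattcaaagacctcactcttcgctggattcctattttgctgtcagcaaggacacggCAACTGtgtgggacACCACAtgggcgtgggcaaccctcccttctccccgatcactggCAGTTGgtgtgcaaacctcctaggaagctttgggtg
Mpo: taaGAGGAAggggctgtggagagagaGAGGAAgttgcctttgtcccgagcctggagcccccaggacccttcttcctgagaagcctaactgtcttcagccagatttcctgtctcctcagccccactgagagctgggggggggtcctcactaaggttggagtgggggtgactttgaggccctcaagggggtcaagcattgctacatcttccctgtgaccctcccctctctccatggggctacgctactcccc

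The neighbouring genes Prtn3 and Elane held the same arrangement of matches. In Prtn3 a PU.1 core began 95 bases and a MYB core 56 bases before the start, and in Elane they began 85 and 51 bases before it. Ctsg held a PU.1 core beginning 216 bases before the start and 2 MYB cores, beginning 93 and 36 bases before it, and a RUNX core. Mpo held 2 PU.1 cores, beginning 247 and 224 bases before the start. Of the 7 measured genes, 5 had a PU.1 core (Ctsg, Elane, Igsf6, Mpo and Prtn3), against 23.3% of 32851 promoter windows of the same length. The MYB core was found in 3 (Ctsg, Elane and Prtn3), against 29.3% of the windows, and the RUNX core in 2 (Cst7 and Ctsg), against 14.0%. The same 3 genes as for MYB held both a PU.1 and a MYB core, against 6.58% of the windows. Ms4a3, the gene with the largest log2 change of the 7, held no match to any of these motifs. None of the 7 held the C/EBP core within these bases, against 9.56% of the windows, but Clec12a, which has no values here, held it 140 bases before the start, with 2 PU.1 cores and a RUNX core. The motifs were chosen with the windows in view, in the 7 genes none of the matches overlapped another, and a match is a string of letters and not a shown binding site.

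The arrays gave 1 signal per probe set, on a linear scale in which each array had been brought to a trimmed mean of 500. Background, the 95th percentile over 27 probe sets for bacterial transcripts, lay between 21.8 and 38.0, and every member lay at least 19.3 times above it on every array. All 7 probe sets passed the filter that kept the upper 50% of probe sets, so the filter removed no measured member. B.D(Chr5) replicate 2 stood apart from the other arrays of its strain in the genes described here. Its closest array over all tested probe sets was C57B/L6 replicate 1 (Pearson's r 0.987 across probe sets, which are not replicates), and r was 0.986 with B.D(Chr5) replicate 1. Over the whole table the array furthest from the others was B.D(Chr5) replicate 3, with r of 0.974 to 0.979, the lowest weight that limma estimated for an array from its residual spread (0.689) and the highest median signal, 79.5 against 65.1 to 70.4. At the strain-marking gene Ifi202b, B.D(Chr5) replicate 2 read 3499.9, beside 4877 and 4753 on the other B.D(Chr5) arrays and at most 4.27 in C57B/L6. At this gene, which was picked after its values were seen, replicate 2 thus had the pattern of its label. B.D(Chr5) replicate 2 also read highest on the probe set of 18S ribosomal RNA, at 20010.3. On that probe set the other B.D(Chr5) arrays read 1726 and 12554 and the C57B/L6 arrays 13058, 2454 and 6306. The part of this signal in the results was not tested.

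All 7 genes had higher mean signals in B.D(Chr5) than in C57B/L6, by between 1.17 times for Mpo and 2.31 times for Ms4a3, and none of the differences passed the test over the whole table. Intensities were analysed as log2(signal + 16) in limma over 22518 probe sets, with a Benjamini-Hochberg adjusted p of 0.05 as the threshold, and a log2 change is B.D(Chr5) minus C57B/L6 on that scale. The test called 41 probe sets, 0.182% of those tested and 0.0977% as higher in B.D(Chr5), and 0 of the 7 members. At an unadjusted p under 0.05, 6 of the 7 members were higher in B.D(Chr5), against 2.18% of all tested probe sets. The median log2 change of the 7 was 0.56, beside a median of 0.00 over all tested probe sets. In bulk RNA of this kind, more cells of a type and more RNA per cell cannot be told apart.

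Among the granule contents, Elane differed most. Elane had signals of 17245, 8822 and 16511 in B.D(Chr5) replicates 1, 2 and 3, against 8801.5, 7395 and 6143 in C57B/L6 replicates 1, 2 and 3. Replicates 1 and 3 of B.D(Chr5) were far above every C57B/L6 array, while replicate 2 was level with the highest of them, at a ratio of 1.00. The means were 14192.5 ± 4666 in B.D(Chr5) and 7447 ± 1329.9 in C57B/L6 (SD, n = 3 each), a log2 change of 0.88 (SE 0.23, limma adjusted p = 0.536).

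Ctsg had signals of 16976, 11244 and 15026 in B.D(Chr5), against 9994, 10034 and 8902 in C57B/L6. The strains did not overlap, and B.D(Chr5) replicate 2 lay 1.12 times above the highest C57B/L6 array. Its log2 change was 0.56 (SE 0.13, limma adjusted p = 0.379), the smallest adjusted p of the 7 genes. Prtn3, the neighbour of Elane, had signals of 15891, 12393 and 16250.4 in B.D(Chr5), against 11765, 10729 and 9942 in C57B/L6. Here too the strains did not overlap, and the log2 change was 0.45 (SE 0.11, limma adjusted p = 0.412).

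Mpo, the gene of myeloperoxidase, differed least among the granule contents. Its signals were 26239, 22617 and 25002 in B.D(Chr5), against 21588, 21686 and 19743.5 in C57B/L6. Every B.D(Chr5) array lay above every C57B/L6 array, but the distance between replicate 2 and the highest C57B/L6 array was small, at a ratio of 1.04. The means were 24619 ± 1841 in B.D(Chr5) and 21006 ± 1094 in C57B/L6 (SD, n = 3 each), a log2 change of 0.23 (SE 0.07, limma adjusted p = 0.846). Of all tested probe sets, 10.1% had a higher log2 change than Mpo, against 0.355% for Elane. Mpo was also the brightest of the 7 genes, and a limit of the arrays at the bright end was not tested.

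Cst7, the cystatin F gene, had signals of 2472, 1641 and 2089.7 in B.D(Chr5), against 1854, 1697 and 1584 in C57B/L6. The strains overlapped, since B.D(Chr5) replicate 2 fell within the range of C57B/L6. The log2 change was 0.25 (SE 0.14, limma adjusted p = 1.00). Cst7 was the member that did not reach the unadjusted threshold either, at 0.103.

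The largest difference of the set was that of Ms4a3, whose product is a membrane-spanning protein used to mark granulocyte-monocyte progenitors. Ms4a3 had signals of 5614, 2396 and 5288 in B.D(Chr5), against 2276, 1946 and 1532 in C57B/L6. The strains did not overlap, yet B.D(Chr5) replicate 2 lay at 1.05 times the highest C57B/L6 array. The means were 4432.5 ± 1771 in B.D(Chr5) and 1918 ± 373 in C57B/L6 (SD, n = 3 each), a log2 change of 1.12 (SE 0.29, limma adjusted p = 0.499). Only 0.138% of the tested probe sets had a higher log2 change. Igsf6, an immunoglobulin superfamily receptor of myeloid cells, had signals of 1374, 616 and 1454 in B.D(Chr5), against 500.1, 641.5 and 531 in C57B/L6. B.D(Chr5) replicate 2 was below the highest C57B/L6 array, so the strains overlapped. The log2 change was 0.93 (SE 0.28, limma adjusted p = 0.714).

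**Figure D1:**
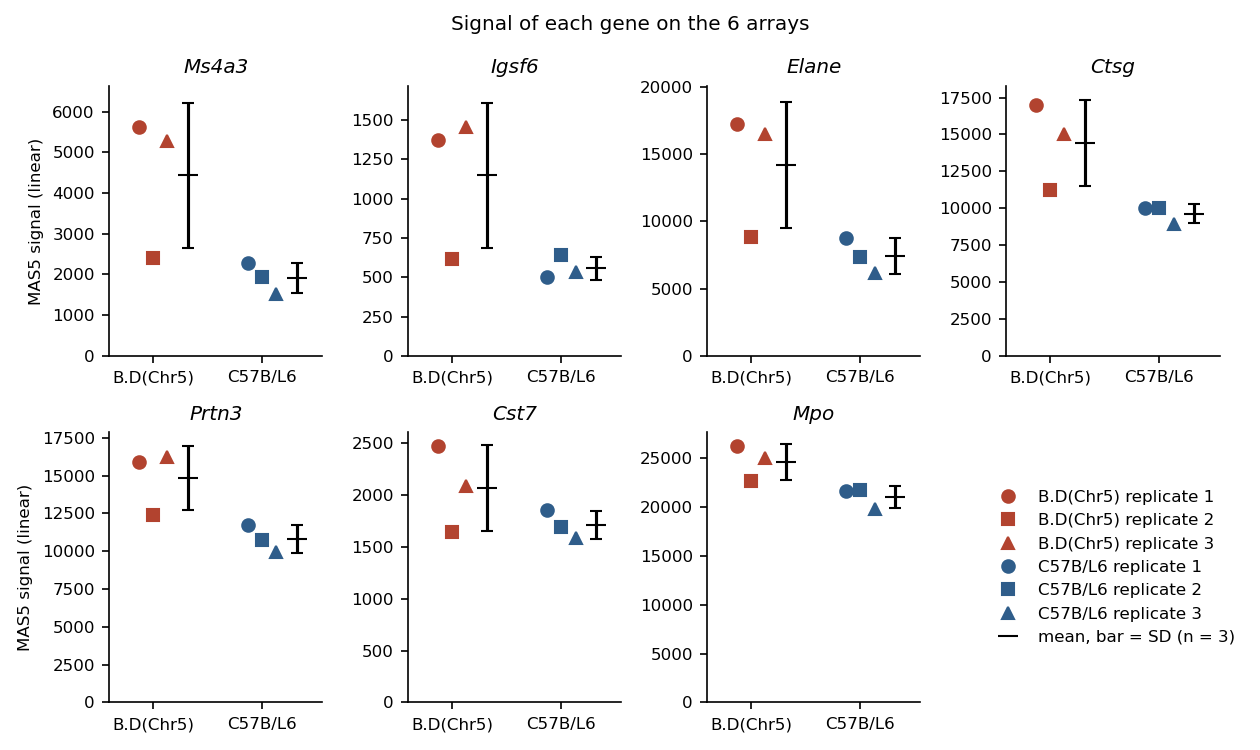
Each panel plots the MAS5 signal of 1 gene (vertical axis, linear scale from 0) on the 3 B.D(Chr5) arrays (red) and the 3 C57B/L6 arrays (blue), with the mean and SD of each strain in black. B.D(Chr5) replicates 1 and 3 are the highest arrays in all 7 panels, and replicate 2 of that strain (red square) lies near the C57B/L6 points, as for Elane at 8822.

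The genes thus varied together between arrays, and B.D(Chr5) replicate 2 departed from the rest of its strain by about as much as the strains differed. In all 7 genes B.D(Chr5) replicates 1 and 3 were the 2 highest of the 6 arrays, an arrangement found in 7.88% of all tested probe sets, and replicate 2 was the lowest of its strain. In 5 of the 7 it was the next highest array, above all of C57B/L6, and these were Mpo, Elane, Prtn3, Ctsg and Ms4a3. A complete separation of the strains with B.D(Chr5) higher occurred in 4.16% of all tested probe sets. B.D(Chr5) replicate 2 lay below the mean of replicates 1 and 3 by 1.18 on the log2 scale for Ms4a3 and for Igsf6, by 0.93 for Elane, by 0.51 for Ctsg, by 0.47 for Cst7, by 0.37 for Prtn3 and by 0.18 for Mpo. In contrast, replicates 1 and 3 differed from each other by at most 0.24, for Cst7. The genes with the larger strain differences were those in which replicate 2 departed further, although Cst7 departed more than Prtn3 and changed less.

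The spread within B.D(Chr5) was larger than that within C57B/L6 for all 7 genes, with an SD on the log2 scale of 0.68 against 0.29 for Ms4a3 and of 0.11 against 0.08 for Mpo. This need not be particular to the 7 genes. Over all tested probe sets, r between arrays was 0.977 to 0.986 within B.D(Chr5), against 0.985 to 0.986 within C57B/L6. Of all tested probe sets, 2.67% had a larger SD in B.D(Chr5) than Ms4a3, and 69.0% had a larger one than Mpo. Within C57B/L6 the genes also leaned the same way. C57B/L6 replicate 3 had the lowest signal of its strain in 6 of the 7 genes, the exception being Igsf6, which was lowest in replicate 1. The mean of the centred log2 values of the 7 genes was 0.58, -0.14 and 0.51 on B.D(Chr5) replicates 1, 2 and 3, against -0.21, -0.27 and -0.47 on C57B/L6 replicates 1, 2 and 3. For Ms4a3, Igsf6 and Elane the arrays fell into 2 separate levels, with B.D(Chr5) replicates 1 and 3 in the upper, so a correlation between genes over the 6 arrays would mostly restate that split and is not given.

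**Figure D2:**
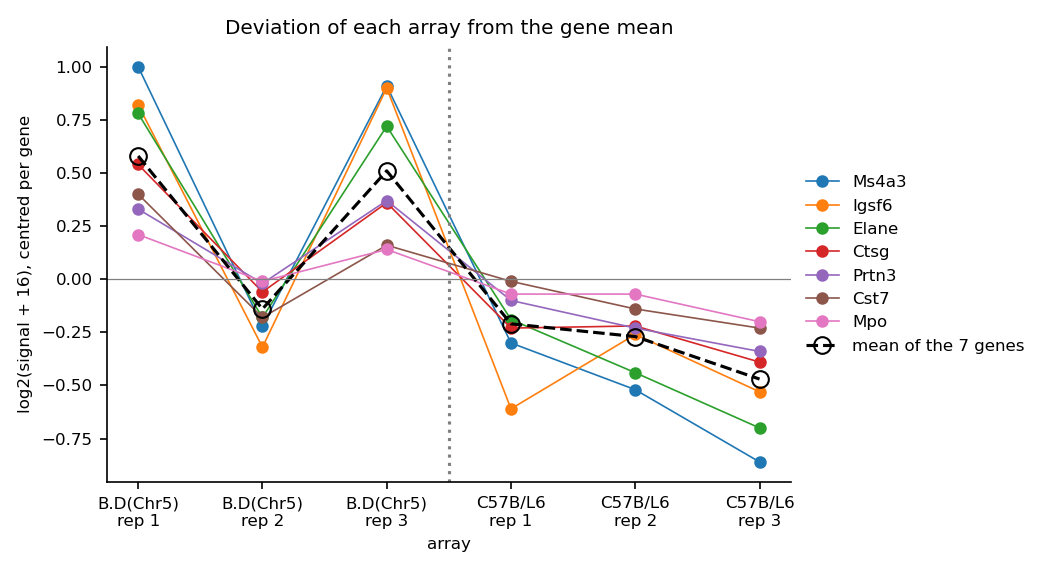
The deviation of each array from the mean of the gene, in log2(signal + 16) (vertical axis), is plotted for the 6 arrays (horizontal axis, B.D(Chr5) left of the dotted line, C57B/L6 right), with a coloured line for each of the 7 genes and a dashed black line for their mean. The mean is 0.58 and 0.51 on B.D(Chr5) replicates 1 and 3, and -0.14 on replicate 2, just above the C57B/L6 value of -0.21 on replicate 1.

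Once B.D(Chr5) replicate 2 was left out, 5 of the 7 members were called, all higher, in a fit that called 0.324% of all tested probe sets and 0.235% as higher in B.D(Chr5). The called genes were Ms4a3, Igsf6, Elane, Ctsg and Prtn3. Without that array Ms4a3 had a log2 change of 1.52 (SE 0.15, limma adjusted p = 0.00451), and Igsf6 had 1.33 (SE 0.14, limma adjusted p = 0.00559). The proteases followed, with Elane at 1.19 (SE 0.13, limma adjusted p = 0.0083), Ctsg at 0.73 (SE 0.09, limma adjusted p = 0.0112) and Prtn3 at 0.57 (SE 0.08, limma adjusted p = 0.0305). Cst7 at 0.41 (limma adjusted p = 0.38) and Mpo at 0.29 (limma adjusted p = 0.234) stayed short of the threshold. The median of the 7 log2 changes was 0.73 without the array.

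These calls rest on B.D(Chr5) replicates 1 and 3 alone. At an unadjusted p under 0.05 all 7 genes were higher, against 3.61% of all tested probe sets. With replicate 2 out, the strains did not overlap in any of the 7 genes, an arrangement found in 10.3% of all tested probe sets. The array is known for its low values in these genes, so leaving it out selects on the quantity that is compared, and they describe the other 5 arrays. Leaving out any other single array gave 0 called members. Those fits called 0.0933% of the probe sets without replicate 1 of B.D(Chr5) and 0.16% without its replicate 3, and 0.138%, 0.107% and 0.0977% without replicate 1, 2 or 3 of C57B/L6. Ms4a3 ranged from 0.91 to 1.52 and Mpo from 0.18 to 0.29 over the 6 fits with an array left out, and all 7 genes kept a positive log2 change in each of them. For Cst7 the log2 change fell to 0.12 without B.D(Chr5) replicate 1. When arrays were centred on their medians, Ms4a3 passed the threshold with all 6 arrays (limma adjusted p = 0.0289), in a fit that called 0.298% of the probe sets.

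**Figure D3:**
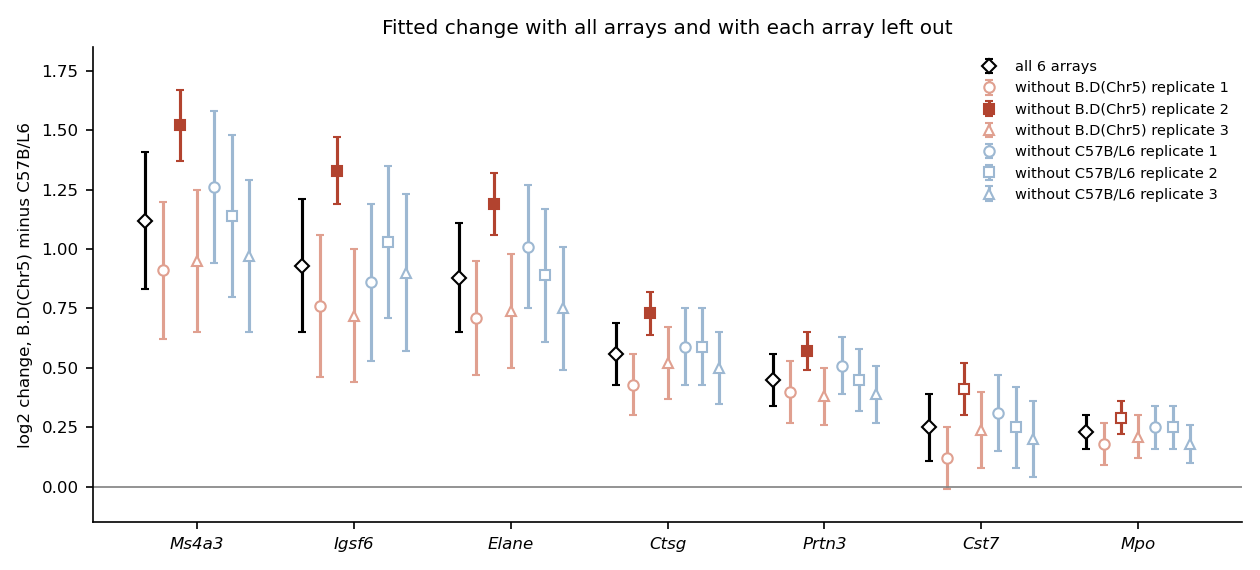
Log2 change of each gene, B.D(Chr5) minus C57B/L6 (vertical axis, bars are SE), with all 6 arrays (black) and with each array left out (red tones for a B.D(Chr5) array, blue for a C57B/L6 array). Filled symbols passed the adjusted threshold, which occurred only in 5 genes without B.D(Chr5) replicate 2, such as Ms4a3 at 1.52.

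Other genes of the same granules and of their regulation were examined as lists, each gene by its brightest tested probe set. Calls without B.D(Chr5) replicate 2 are also given for these lists and for the marker lists below. That array was left out for its low values in the members, so such calls favour genes low on it and describe the remaining arrays only. That fit called 0.235% of all tested probe sets as higher in B.D(Chr5). Over all 10739 tested genes the median log2 change was -0.01, 46.6% had a positive log2 change and 8.86% had B.D(Chr5) replicates 1 and 3 as the highest arrays. Of 7 tested genes of other azurophil granule contents, 6 had a positive log2 change, 0 were called and 6 had that arrangement of arrays, with a median of 0.16. The lysozyme genes Lyz1 and Lyz2 had log2 changes of 0.41 (limma adjusted p = 0.795) and 0.47 (limma adjusted p = 1.00). Their near-identical sequences make the assignment of signal uncertain. The lysosomal sulfatase gene Arsb had 0.21 at its brightest probe set, but only 1 of its 3 tested probe sets had that sign. Lyz2 read 6801, 5199 and 10182 in B.D(Chr5), against 4639, 5618 and 5205 in C57B/L6, again with replicate 2 in the C57B/L6 range. Of 10 genes for processing, packaging and release of granule proteins, 7 were positive, 0 were called and the median was 0.05. Ctsc, encoding the cathepsin that activates the granule serine proteases, had a log2 change of 0.29, the granulocyte GTPase gene Rab44 had 0.22 and the granule fusion gene Vamp8 had -0.07.

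Inhibitors of granule proteases were positive for 4 of 6 tested genes, with a median of 0.04 and 0 called. Slpi, encoding a secreted inhibitor of elastase and cathepsin G, had signals of 3971, 2399 and 3486 in B.D(Chr5), against 2194, 2556.5 and 2199 in C57B/L6. Its log2 change was 0.47 (limma adjusted p = 0.90), and it was called without B.D(Chr5) replicate 2 (limma adjusted p = 0.0444). The elastase inhibitor gene Serpinb1a had 0.21, while Serpinb6b, at -0.28, went the other way.

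Among 11 tested regulators of granulocyte genes, 10 were positive, 0 were called and the median was 0.16. Gfi1 lies on chromosome 5 and encodes a repressor needed for neutrophil differentiation. Gfi1 had signals of 656, 294.5 and 653 in B.D(Chr5), against 325, 376 and 312 in C57B/L6. B.D(Chr5) replicate 2 was the lowest of the 6 arrays, and the log2 change of Gfi1 was 0.56 with all arrays (limma adjusted p = 1.00) and 0.93 without that array (limma adjusted p = 0.0438). Cebpb and Cebpa, genes of C/EBP factors, had log2 changes of 0.54 and 0.39 with all arrays. Of 10 other genes of granulocyte-monocyte progenitors, 10 were positive, 0 were called and 8 had B.D(Chr5) replicates 1 and 3 as the highest arrays, with a median of 0.18. Mgst1, a microsomal glutathione transferase gene, had a log2 change of 0.70 and was called without B.D(Chr5) replicate 2 (limma adjusted p = 0.019). The hexokinase gene Hk3 had 0.40 and the chaperone gene Calr had 0.17.

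Relatives of the members by sequence family were positive for 13 of 15 tested genes, with a median of 0.21 and 0 called. Epx, the eosinophil counterpart of Mpo, had signals of 593, 295 and 794 in B.D(Chr5), against 245, 304 and 179 in C57B/L6, and a log2 change of 1.08 (limma adjusted p = 0.702). Of the Ms4a family, Ms4a4b, a gene of T cells, had a log2 change of -0.58, opposite to Ms4a3. The lectin receptor gene Clec7a had 0.57. In the fit without B.D(Chr5) replicate 2, 3 of these relatives were called, Epx (limma adjusted p = 0.0445), Clec7a (0.0212) and the basophil protease gene Mcpt8 (0.00108). For Mcpt8 the array left out was the lowest of the 6 arrays, at 1113.

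Marker lists of other myeloid cells did not all follow the arrays in the same way. The summed signal of 9 markers of mast cells, basophils and eosinophils was 16572, 7781 and 14153 on B.D(Chr5) replicates 1, 2 and 3, against 7534 to 7968 in C57B/L6. This list had the same high arrays as the 7 genes, with Fcer1a at a log2 change of 1.38, Prg2 at 0.96 and Epx at 1.08. Of its 8 tested genes 7 were positive and 0 were called, with a median of 0.78. Without B.D(Chr5) replicate 2 the median was 1.09 and 3 of the 8 were called, Mcpt8, Epx and Prg2, the last at 1.28 (limma adjusted p = 0.0222). That fit called 0.235% of all tested probe sets as higher in B.D(Chr5). Mcpt8 and Epx are the same genes that were counted among the relatives above. The 11 markers of maturing neutrophils, which make secondary granules, summed to 54439.8, 54955 and 75999 in B.D(Chr5), against 46962 to 52789.5 in C57B/L6. B.D(Chr5) replicate 2 was thus not below replicate 1 in this list, and 3 of its 11 genes had replicates 1 and 3 as the highest arrays. Among them Camp had a log2 change of 0.65 and Ngp 0.45, while Chil3 fell by 1.52 and was called (limma adjusted p = 0.0116). Chil3 was called in 2 of the 6 fits that left an array out, those without B.D(Chr5) replicate 2 or 3 (limma adjusted p 8.33e-04 to 0.0919 over the 6). The median of the list was 0.42, with 9 of 11 positive.

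Monocyte and dendritic cell markers (10 genes) summed to 31689, 23654 and 33496 in B.D(Chr5), against 22697 to 28601 in C57B/L6, with 7 of 10 positive, 0 called and a median of 0.16. F13a1, a coagulation factor gene of monocytes, had a log2 change of 0.33, Cx3cr1 had 0.18 and Flt3 had -0.29, and F13a1 was called without B.D(Chr5) replicate 2 (log2 change 0.48, limma adjusted p = 0.0276). The 9 stem and multipotent progenitor markers summed to 14455, 16304 and 14300.1 in B.D(Chr5), against 15437 to 17942 in C57B/L6. Of these, 1 was positive, Slamf1, which was called (log2 change 1.15, limma adjusted p = 0.0361), and the median was -0.17. Slamf1 was called in 1 of the 6 fits that left an array out, that without B.D(Chr5) replicate 3 (limma adjusted p 0.0368 to 0.218 over the 6). B.D(Chr5) replicates 1 and 3, the high arrays for the granule genes, were the lowest of the 6 for this sum. In these 4 lists 0 markers lay at background on all arrays, but 1 of the 9 mast cell, basophil and eosinophil markers was too dim to be tested. No p-value is given for the sums between strains, since an exact permutation test of 3 arrays against 3 cannot give a p under 0.1. The part of these cell types in the difference of the granule genes was not tested.

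**Figure D4:**
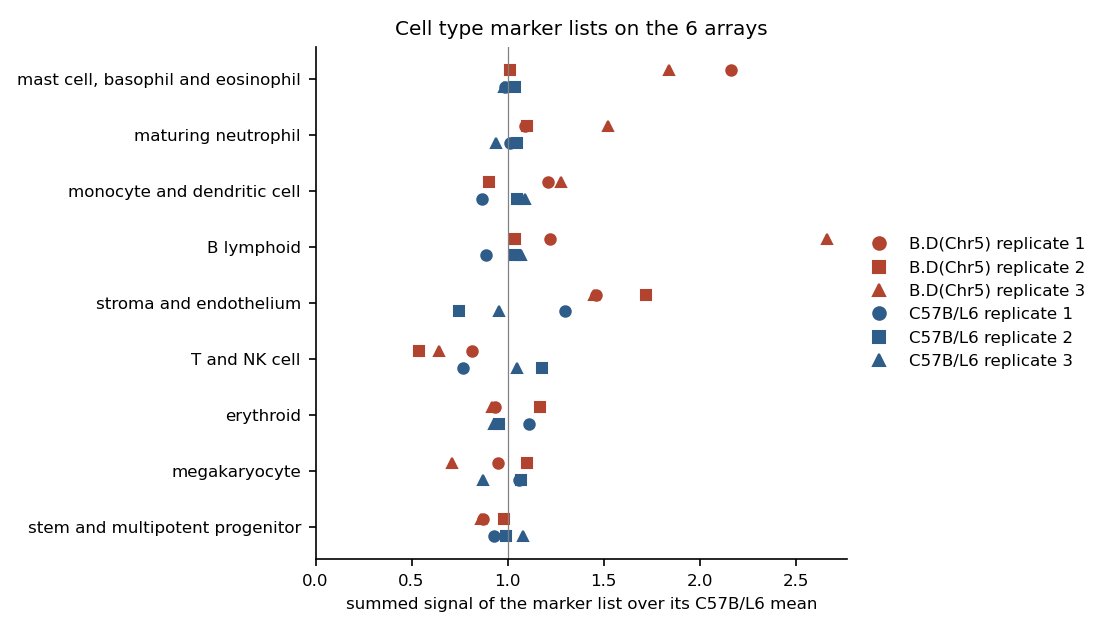
Summed signal of each marker list on each array, divided by the mean of that sum in C57B/L6 (horizontal axis, ratio), for B.D(Chr5) (red, upper row of each list) and C57B/L6 (blue, lower row). For mast cells, basophils and eosinophils, B.D(Chr5) replicates 1 and 3 are at 2.16 and 1.84 and replicate 2 is at 1.01.

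The genes whose pattern over the 6 arrays was most like the mean of the 7 members were Anxa3, Hp, Alas1, Cldn15 and Hspa13, with Pearson's r of 0.999, 0.992, 0.992, 0.987 and 0.986 on the log2 scale. They were picked as the highest of all tested genes, and r here mostly reflects the 2 high arrays, so no p is given. Anxa3 and Cldn15 lie on chromosome 5, while Hp, Alas1 and Hspa13 lie on chromosomes 8, 9 and 16. Anxa3, a calcium-dependent membrane-binding annexin, had signals of 3162, 1795 and 2998 in B.D(Chr5), against 1729.7, 1683 and 1394 in C57B/L6. Hp, the haptoglobin gene, had 2419.8, 1304 and 2506 in B.D(Chr5), against 1102, 1058 and 806 in C57B/L6. Alas1, which encodes the first enzyme of haem synthesis outside red cells, had 3733, 1926 and 3527 in B.D(Chr5), against 1865, 1808 and 1683 in C57B/L6. In these 3 genes B.D(Chr5) replicate 2 lay just above the C57B/L6 arrays. With all arrays the log2 changes were 0.68 for Anxa3, 1.01 for Hp and 0.72 for Alas1, and none passed the threshold (limma adjusted p = 0.638, 0.337 and 0.699). Cldn15, a claudin gene, had 444, 179 and 425 in B.D(Chr5), against 211, 175 and 143 in C57B/L6, with replicate 2 inside the C57B/L6 range. Hspa13, a chaperone gene, had 1859, 1562 and 1871 in B.D(Chr5), against 1500.3, 1425 and 1333 in C57B/L6, and a log2 change of 0.31. Fits without B.D(Chr5) replicate 2 are not read for these 5 genes, since their choice by likeness favours genes in which that array is low.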

How the data were processed

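RNA of lineage-depleted bone marrow cells was measured on 6 Affymetrix MG 430 2.0 arrays, 3 per strain. The authors deposited 1 linear intensity per probe set and array, computed by MAS5 according to the submitters' processing notes. The MAS5 version is not given in the sources used here. Every array has a mean of 500 once 2% of its values are trimmed at each end. Of 45101 probe sets, 64 controls were left out, and 34945 of the rest had 1 gene symbol, updated through Entrez identifiers to RefSeq (GRCm38.p6). Intensities became log2(signal + 16), and the brighter 50% of probe sets (mean of the 6 log2 values) were fitted with strain as sole term by lmFit and trended eBayes of limma 3.58.1 in R 4.3.3. Tests were two-sided and adjusted by Benjamini-Hochberg over 22518 probe sets. The fit was tested on simulated data with added log2 changes. It called 18 of 67 probe sets changed by 0.5, 42 of 67 changed by 1 and 58 of 66 changed by 2. Of its 126 calls, 8 were false. Changes of the size seen in the members can therefore be missed. Fold changes on this scale understate changes of dim probe sets. No arrays were identical, and the number of arrays limits the precision.

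The members and gene lists were chosen with earlier results of these data known, so no p-value is given for a list as a whole. Genes were named by rule: all members, in each list every called gene and otherwise the 3 members of smallest p, and the 5 genes most like the members over the arrays. Mcpt8, Camp, Ngp and Ifi202b fall outside this rule and were added after their values were seen. A gene counted as called if any tested probe set passed. Correlations between pairs of members had been planned and are not given because the arrays fell into separate levels. Alternatives covered the pseudocount, the filter, quantile normalization, centring on medians, eBayes without trend, array weights, the replicate number as a block, averaging all probe sets of a gene and leaving out each array.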

Additional observations from a re-analysis of the deposited data

How the results depend on the processing

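All 112 log2 changes of the 7 genes under the 16 alternatives were positive, and 6 of them passed the threshold, 5 without B.D(Chr5) replicate 2 and 1, that of Ms4a3, with arrays centred on their medians. The number of called members was 1 with that centring and 0 to 5 when an array was left out. The median log2 change of the 7 genes was 0.43 to 0.73 with an array left out and 0.55 to 0.61 under the other alternatives, against 0.56 as reported. Over the whole table, 41 probe sets were called, against 67 with arrays centred on their medians, 25 by eBayes without trend, 21 in the upper 25% of probe sets, where 11259 were tested, 27 with the replicate number as a block, and 21 to 73 with an array left out. Apart from those fits the cause was not tested. The labels number the replicates of both strains 1 to 3, but same-numbered arrays did not deviate together (r of deviations from strain means, across probe sets, -0.113, -0.204 and 0.197), and only B.D(Chr5) replicate 3 correlated best with its own number. With the replicate block 0 of the 7 genes were called, as without it. All members lay far above background, so dimness does not limit these values.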

Other observations

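The 8 B lymphoid markers summed to 3531, 3019.7 and 7688.5 in B.D(Chr5), against 2570.4 to 3096 in C57B/L6. B.D(Chr5) replicate 3 stood alone, at 2.66 times the C57B/L6 mean, against 1.22 on replicate 1 and 1.04 on replicate 2. In the granule genes, by contrast, replicates 1 and 3 were close to each other. Replicate 2 lay within the C57B/L6 range. All 7 tested B lymphoid genes had positive log2 changes, among them Igll1 at 0.83, Vpreb1 at 0.82 and Cd79a at 0.68, and 0 were called with or without B.D(Chr5) replicate 2. Of the 7, 4 had B.D(Chr5) replicates 1 and 3 as the highest arrays, and their median was 0.68 with all arrays and 0.97 without B.D(Chr5) replicate 2. Stromal and endothelial markers (8 genes) summed to 2822, 3321 and 2799.6 in B.D(Chr5), against 1439.6 to 2502 in C57B/L6, with B.D(Chr5) replicate 2 the highest. Of these, 6 of 6 tested genes were positive and 0 were called, with Lpl at 1.06, Cxcl12 at 0.97 and Lepr at 0.94.

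T and NK cell markers (8 genes) summed to 1675, 1102 and 1325 in B.D(Chr5), against 1582 to 2425 in C57B/L6. Cd4 lay at or below the bacterial controls on all arrays, and 5 of 6 tested genes were negative, with Cd3d at -0.80, Thy1 at -0.64 and Cd3g at -0.56 and 0 called. The 8 erythroid markers summed to 60704, 75847 and 59642 in B.D(Chr5), against 60289 to 72345 in C57B/L6, and the 6 megakaryocyte markers to 5822, 6761 and 4360.1 in B.D(Chr5), against 5346 to 6546.5 in C57B/L6. B.D(Chr5) replicate 2, the low array of its strain for the granule genes, was the highest of the 6 arrays for both sums. In the erythroid list Tfrc had a log2 change of 0.17, Alas2 -0.22 and Epor -0.16, in the megakaryocyte list Gp9 had -0.39, Pf4 -0.14 and Itga2b -0.11, and 0 genes of either list were called. Of the named genes, Tfrc and Itga2b were highest on B.D(Chr5) replicate 2, and Alas2, Epor, Gp9 and Pf4 on a C57B/L6 array.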
